A study of Mus musculus with 18 samples.

Results

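The unfolded protein response and the quality control of the endoplasmic reticulum (ER) were followed through 39 genes in retina and in RPE/choroid (the retinal pigment epithelium with the choroid beneath it) of mice with altered Abca4. The genes were taken by symbol from a list of sensors, transcription factors, chaperones, folding enzymes, degradation factors and targets, and all 39 were found among the 22558 genes of the deposited tables. Abca4 encodes a lipid transporter of photoreceptor discs that removes retinoid adducts. The knock-in mice carry the allele Abca4 L541P;A1038V on both chromosomes, whose protein is known to misfold, the knockout mice are Abca4-/-, and wild-type mice (WT) served as controls. Mice of all groups were 30 days old and of mixed 129SV and C57BL/6 background, and each genotype has 3 libraries of each tissue, which makes 18. The question was whether the misfolding protein moves any of the 3 branches of the response, with the knockout, which lacks the normal protein, beside it. Whether the 3 libraries of a group are from different mice is not given, and the p-values reflect spread among these libraries alone.

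Proteins that enter the secretory pathway fold in the ER with the help of chaperones, lectins and enzymes that form disulfide bonds, and those that fail are sent back to the cytosol for degradation. When unfolded protein accumulates, the sensors IRE1, ATF6 and PERK in the ER membrane are activated. IRE1, encoded by Ern1, splices the Xbp1 transcript, and the resulting transcription factor induces genes of degradation, translocation and the DnaJ cofactors. ATF6 is cut in the Golgi and its freed part induces chaperones such as Hspa5, the gene of BiP. PERK, encoded by Eif2ak3, phosphorylates the initiation factor eIF2α, which slows translation and favours translation of Atf4, and ATF4 induces Ddit3 (CHOP), Trib3, Asns and Chac1. Rods make large amounts of membrane protein each day, and misfolded rhodopsin is a known trigger of the response in retina. The 39 genes were assigned to these branches by their textbook inducer: 12 to IRE1 and XBP1, 18 to ATF6 and 8 to PERK and ATF4, with Vcp in none. Several of them have more than 1 inducer. The deposited tables list 1 transcript of Xbp1, so splicing was not analysed here.

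The sequence elements through which the response acts were looked for in RefSeq promoters of build GRCm38.p6, which run from 250 bases before to 50 bases after each start and were found for 34 of the 39 genes. The ER stress response element (ERSE) was searched on both strands as CCAAT and CCACG with 9 bases of any kind between them, and 10 of the 34 promoters (29.4%) held it, against 39 of all 32851 promoters (0.119%). These 10 genes were Calr, Canx, Creld2, Derl3, Dnajc3, Ero1lb, Hsp90b1, Hspa5, Pdia6 and Syvn1. The shorter form ERSE-II, ATTGG and CCACG with 1 base between them, also on both strands, stood in the promoters of Herpud1 and Dnajb11 and in 0.0365% of all promoters. The element of ATF4 targets (CARE), searched as TGATGNAA, stood in 4 of the 34 promoters (11.8%), those of Asns, Chac1, Trib3 and Herpud1, against 3.97% of all promoters. The core of the XBP1 element, TGACGTGG, was found in the promoter of Vcp alone among the 34 and in 0.676% of all. These matches describe letters in the window and not occupied sites. A set of matches from genes assigned to ATF6 and PERK is shown in the direction of each gene, with the fixed letters in capitals. The elements did not follow the branches closely. Atf4, Ddit3, Ppp1r15a, Ero1l and Eif2ak3 of the PERK branch held no CARE in the window, and Derl3, Dnajc3 and Syvn1 of the IRE1 branch held the ERSE. In Calr, Trib3 and Chac1 the match lies on the opposite strand and reads as the reverse complement.
Hspa5: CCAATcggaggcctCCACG
Hsp90b1: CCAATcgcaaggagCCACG
Canx: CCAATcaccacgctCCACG
Calr: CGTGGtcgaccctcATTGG
Herpud1: ATTGGgCCACG
Asns: TGATGaAA
Trib3: TTaCATCA
Chac1: TTgCATCA

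The 250 bases before the start are printed for the chaperone gene on which ATF6 acts and for the ATF4 targets Asns and Chac1, on which most of the results turn. The windows are chr2:34771840-34772089 on the plus strand for Hspa5, chr6:7693210-7693459 on the minus strand for Asns and chr2:119350992-119351241 on the plus strand for Chac1, all of GRCm38.p6. Each is read 5′ to 3′ along its gene, and capitals mark the fixed letters of the ERSE in Hspa5 and of the CARE in Asns and Chac1. The ERSE of Hspa5 begins 65 bases before the start, the CARE of Asns 23 bases before it and that of Chac1 193 bases before it. The CARE of Trib3 lies 14 to 21 bases after its start.
Hspa5: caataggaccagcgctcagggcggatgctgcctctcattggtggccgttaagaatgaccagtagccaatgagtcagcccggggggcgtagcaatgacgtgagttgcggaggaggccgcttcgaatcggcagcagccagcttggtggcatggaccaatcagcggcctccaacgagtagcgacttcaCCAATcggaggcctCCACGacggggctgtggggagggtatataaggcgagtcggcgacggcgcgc
Asns: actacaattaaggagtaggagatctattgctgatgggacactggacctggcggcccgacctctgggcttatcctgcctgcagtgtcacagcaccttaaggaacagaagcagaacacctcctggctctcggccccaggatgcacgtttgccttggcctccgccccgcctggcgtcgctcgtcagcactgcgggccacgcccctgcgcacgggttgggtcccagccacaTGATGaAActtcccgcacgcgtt
Chac1: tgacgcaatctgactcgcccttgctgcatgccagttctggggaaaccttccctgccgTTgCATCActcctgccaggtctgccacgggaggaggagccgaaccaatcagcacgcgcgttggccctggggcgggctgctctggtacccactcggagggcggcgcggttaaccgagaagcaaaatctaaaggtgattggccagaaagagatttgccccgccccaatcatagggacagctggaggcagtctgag

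Fragments assigned to genes numbered 11.6 to 23.6 M per library for retina and 14.6 to 30.0 M for RPE/choroid, and all 39 genes passed the expression filter in both tissues. Abca4, the targeted gene, had 81.8, 80.3 and 73.9 FPKM (fragments per kilobase of transcript, scaled to library size) in the 3 knockout retinas, against 283, 251 and 228 FPKM in wild-type retinas, a fall to 31.2% in scaled fragments (log2 -1.68, adjusted p = 4.32e-08). The deposited tables hold fragments over the whole gene, and which part the allele lacks is not given in the sources used here. Knock-in retinas had 233, 197 and 182 FPKM of Abca4 (log2 -0.30 against wild type, adjusted p = 0.186). In RPE/choroid the levels were 36.7, 36.6 and 42.5 FPKM in knock-in, 26.5, 25.6 and 26.3 FPKM in knockout and 35.4, 38.4 and 59.5 FPKM in wild type, and neither genotype passed the test against wild type. The summed FPKM of 15 lens genes was 519 to 7960 in knock-in, 664 to 15400 in knockout and 53.5 to 1020 in wild-type retinas. In RPE/choroid the summed FPKM of 12 rod genes was 195 to 350 in knock-in, 245 to 497 in knockout and 124, 181 and 2590 in wild-type libraries, so 1 wild-type library stood apart. The tissues matched their labels: 10 RPE genes summed to 7280 to 12100 FPKM in RPE/choroid and 186 to 276 FPKM in retina, and the rod genes to 24800 to 28000 FPKM in retina. By Xist and Ddx3y, 3 knock-in, 2 knockout and 1 wild-type retinas were female, as was 1 knock-in RPE/choroid.

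Before the results, 1 property of the deposited FPKM has to be stated, because it sets which scale is used below. The tables number the libraries of each genotype 0, 1 and 2, and the fragments behind 1 FPKM of a gene differed between number 2 and the others in all 3 genotypes. In RPE/choroid, Dnajb9, which encodes the BiP cofactor ERdj4, had 40.8, 49.4 and 83.4 FPKM in knock-in, 43.8, 48.3 and 79.1 FPKM in knockout and 39.7, 54.7 and 67.0 FPKM in wild-type libraries 0, 1 and 2. In fragments per M after TMM scaling, the same libraries had 78.9, 85.7 and 81.9 in knock-in, 84.0, 79.4 and 81.8 in knockout and 71.6, 87.6 and 73.9 in wild type. The step at number 2 was in FPKM and not in the fragments. By FPKM, number 2 was the highest of its genotype in all 3 genotypes for 10 of the 39 genes (25.6%) in RPE/choroid. Dnajb9, Derl2 and Atf6 were among these, and the share of all tested genes was 30.1%. It was the lowest for 11 (28.2%), among them Ddit3 and Atf4, against 15.7% of all tested genes. By scaled fragments it was the highest for 0 genes, against 4.35% of all tested genes. It was the lowest for 7 (17.9%), Ddit3 among them, against 5.22% of all tested genes. In fragments per FPKM, number 2 did not overlap the other numbers for 27 of the 39 genes in RPE/choroid and 31 in retina, against 79.5% and 84.3% of all tested genes. The ratio of number 2 to the others ran from 0.587 to 1.36 in RPE/choroid and from 0.741 to 1.39 in retina over those genes. The median coefficient of variation of the 39 genes within a group was 12.1% by FPKM and 5.98% by scaled fragments in RPE/choroid, and 7.93% and 5.09% in retina. The cause was not tested. Values per library, overlaps and differences of single genes are therefore given below in TMM-scaled fragments per M of library (FPM). FPKM, which corrects for gene length, is used where levels of different genes are compared. It is also used for the sums of marker genes, for 1 reading of the branch levels and for limma, which may carry the step at number 2.

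**Figure D1:**
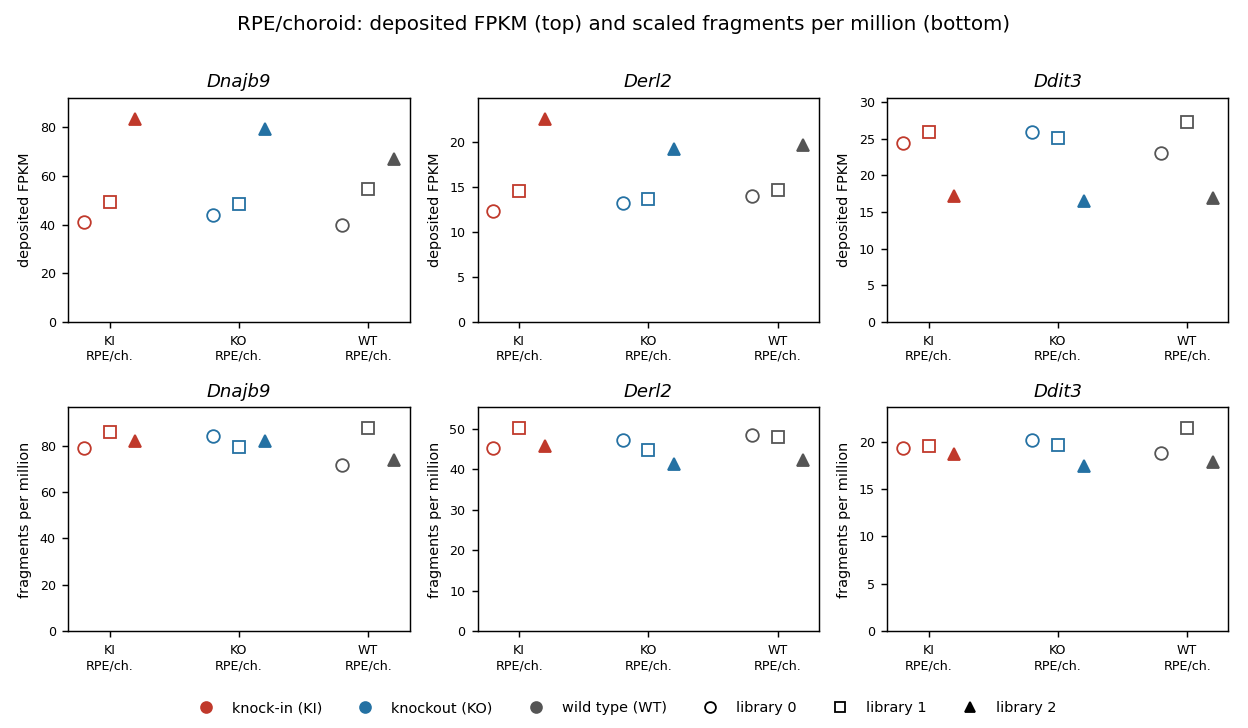
Level of Dnajb9, Derl2 and Ddit3 in each RPE/choroid library, as deposited FPKM (top) and as TMM-scaled fragments per M (bottom), with knock-in (KI), knockout (KO) and wild type (WT) along the x axis and the marker giving the number of the library in the deposited table. Library 2 is the highest by FPKM for Dnajb9 and Derl2 and the lowest for Ddit3 in each genotype, by fragments Dnajb9 shows no such step and Ddit3 is still lowest in library 2; the last 2 genes were chosen after their values were seen.

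The ER machinery was expressed well above the average gene. The median over the 39 genes of the mean FPKM was 24.7 to 26.7 in the 6 groups, against 9.49 to 9.96 over all tested genes. The luminal lectin calreticulin, Calr, was the highest in every group, at 265 ± 30.4 FPKM in wild-type RPE/choroid and 196 ± 20.5 FPKM in wild-type retina (SD, n = 3). Hspa5, the gene of the central chaperone BiP, had 193 ± 11.3 FPKM in wild-type RPE/choroid and 134 ± 24.2 FPKM in wild-type retina. The sensors were far lower. In wild-type retina Atf6 had 21.5 ± 1.505, Eif2ak3 12.8 ± 0.292 and Ern1 5.57 ± 0.630 FPKM (SD, n = 3), and the libraries of the 3 genes did not overlap. Wild-type RPE/choroid had 15.8 ± 2.79 FPKM of Atf6, 12.3 ± 0.914 of Eif2ak3 and 6.13 ± 0.376 of Ern1, and there the lowest library of Atf6 lay close to the highest of Eif2ak3. Derl3, a degradation factor of secretory cells, and in retina Chac1, were at about 1 FPKM, the lowest of the set.

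No gene of any branch passed the test in knock-in retina against wild type. Of the 39 genes, 0 reached an adjusted p under 0.05 in edgeR's quasi-likelihood test, where 0.265% of all 14699 tested genes passed. DESeq2 and limma called 0 as well, and so did each of the 20 alternatives. At an unadjusted p under 0.05 there was 1 gene, Dnajb9 (2.56%), against 8.5% of all genes. The 95% interval of the fold change lay within 1.5-fold either way for 37 of the 39 genes, against 78.1% of all genes, and reached 2-fold for Chac1 alone, against 9.51% of all genes. The groups did not overlap for 5 genes (12.8%), Chac1, Derl1, Dnajb9, Eif2ak3 and Ero1l, against 15.3% of all genes.

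The sensors and their transcription factors come first. Ern1 had 26.8, 21.9 and 22.0 FPM in knock-in and 21.1, 23.8 and 21.6 FPM in wild-type retinas (log2 0.091, SE 0.0910, adjusted p = 0.835). Atf6 had 174, 158 and 162 FPM in knock-in and 168, 163 and 170.3 FPM in wild-type retinas (log2 -0.018, SE 0.0519, adjusted p = 0.956). Both sets of libraries overlapped. Eif2ak3 had 61.5, 59.5 and 59.9 FPM in knock-in and 57.7, 55.4 and 54.9 FPM in wild-type retinas, without overlap and without passing the test (log2 0.11, SE 0.0687, adjusted p = 0.739). Xbp1, the target of IRE1, had 80.1, 80.0 and 88.9 FPM in knock-in and 76.4, 73.2 and 84.5 FPM in wild-type retinas (log2 0.090, SE 0.0748, adjusted p = 0.791). Atf4 had 249, 248 and 251 FPM in knock-in and 257, 246 and 275 FPM in wild-type retinas, and the 3 knock-in libraries lay inside the wild-type range (log2 -0.058, SE 0.0568, adjusted p = 0.833). Ddit3, which encodes the factor CHOP of prolonged stress, had 35.7, 34.6 and 34.8 FPM in knock-in and 33.9, 33.9 and 36.6 FPM in wild-type retinas (log2 0.011, SE 0.0656, adjusted p = 0.981).

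Chaperones and other effectors overlapped between the groups, with the exception of Dnajb9 and Chac1 among those given here. Hspa5 had 397, 391 and 416 FPM in knock-in and 401, 360.1 and 417 FPM in wild-type retinas, and its fold change had a 95% interval from log2 -0.14 to 0.21 (adjusted p = 0.947). Dnajb9, a target of XBP1, had 33.3, 36.6 and 35.5 FPM in knock-in and 38.8, 37.5 and 45.0 FPM in wild-type retinas. Every knock-in library lay under every wild-type library, and the difference did not pass (log2 -0.20, SE 0.0933, adjusted p = 0.580). Herpud1, a degradation factor that both ATF6 and ATF4 can induce, had 77.5, 84.4 and 85.1 FPM in knock-in and 76.0, 75.3 and 87.9 FPM in wild-type retinas (log2 0.048, SE 0.0690, adjusted p = 0.895). Asns, the asparagine synthetase gene and an ATF4 target, had 58.9, 61.3 and 61.8 FPM in knock-in and 60.6, 60.2 and 66.4 FPM in wild-type retinas, with overlap (log2 -0.040, SE 0.0921, adjusted p = 0.942). Chac1, near the lower end of detection in retina, had 0.820, 0.878 and 1.24 FPM in knock-in and 1.34, 1.25 and 1.38 FPM in wild-type retinas, and its interval ran from log2 -1.15 to 0.27 (adjusted p = 0.760). Those groups lay apart. The median log2 difference was 0.0078 over the 12 IRE1 genes, 0.017 over the 18 ATF6 genes and -0.014 over the 8 PERK genes, against 0.00065 over all tested genes. By role, the median was 0.032 over the 9 Hsp70 and Hsp90 chaperones and cofactors, -0.011 over the 6 disulfide enzymes and 0.036 over the 10 degradation genes. Calr (log2 0.0032) and its membrane-bound partner Canx (-0.066) did not pass, and neither did the translocon genes Sec61a1 (-0.023) and Sec61b (-0.072). Sec61b had 17.2, 20.4 and 17.0 FPM in knock-in and 18.9, 18.8 and 19.6 FPM in wild-type retinas, which overlapped. Ero1lb had 24.2, 21.7 and 23.5 FPM in knock-in and 25.4, 22.3 and 21.7 FPM in wild-type retinas (log2 -0.0019, SE 0.0830, adjusted p = 0.999), also with overlap. Some cell markers lay apart between these groups. The 10 RPE genes summed to 212 to 229 FPKM in knock-in and 186 to 195 FPKM in wild-type retinas. The 5 erythroid genes summed to 15.8 to 24.7 FPKM in knock-in and 35.4 to 46.9 FPKM in wild-type retinas. The part of these cells in the values was not tested. In whole tissue, fewer cells of a type and less RNA per cell cannot be told apart.

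In RPE/choroid no gene passed between knock-in and wild type either. Of the 39 genes 0 passed, where 0.0647% of all 15454 tested genes did, and DESeq2, limma and each of the 20 alternatives called 0 too. Unadjusted p-values were under 0.05 for Atf4 and Ero1lb (5.13%), against 5.53% of all genes, and these were also the 2 genes whose groups did not overlap, against 9.84% of all genes. Intervals lay within 1.5-fold for 34 of the 39 genes, against 74.2% of all genes. The other 5 were the low or variable genes Chac1, Trib3, Asns and Derl3, and Ero1lb. For Derl3 alone the interval reached 2-fold, against 11.7% of all genes.

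Ero1lb, which encodes a disulfide oxidase of the ER, had 10.5, 12.3 and 12.5 FPM in knock-in and 14.3, 17.2 and 16.0 FPM in wild-type RPE/choroid. It had the smallest p of the set and did not pass (log2 -0.43, SE 0.134, adjusted p = 0.781). Atf4 had 141, 138 and 134 FPM in knock-in and 153, 156 and 150.5 FPM in wild-type RPE/choroid (log2 -0.15, SE 0.0599, adjusted p = 0.853). All 3 knock-in libraries lay under the wild-type ones by a small distance. The estimates of the ATF4 targets stood on both sides of 0. Asns had 12.7, 11.1 and 12.3 FPM in knock-in and 11.9, 13.8 and 18.9 FPM in wild-type libraries (log2 -0.30, adjusted p = 0.904). Chac1 had 21.6, 19.9 and 18.9 FPM in knock-in and 12.5, 22.2 and 14.5 FPM in wild-type libraries (log2 0.29, adjusted p = 0.901). Both overlapped between the groups. Hspa5 had 550.2, 572 and 550.1 FPM in knock-in and 582, 594 and 510.3 FPM in wild-type RPE/choroid, with a 95% interval from log2 -0.17 to 0.14. Xbp1 had 156, 144 and 145 FPM in knock-in and 151, 152 and 129.6 FPM in wild-type libraries (log2 0.041, SE 0.0682, adjusted p = 0.957), and Ddit3 had 19.4, 19.5 and 18.7 FPM in knock-in and 18.8, 21.4 and 17.8 FPM in wild-type libraries (log2 -0.013, SE 0.0900, adjusted p = 0.988). The groups overlapped for both. Ern1 had 25.2, 25.8 and 21.4 FPM in knock-in and 26.1, 25.9 and 25.7 FPM in wild-type libraries (log2 -0.10). Eif2ak3 had 53.0, 51.1 and 54.5 FPM in knock-in and 52.8, 57.3 and 51.4 FPM in wild type (log2 -0.027). Atf6 had 109.9, 109 and 106 FPM in knock-in and 105, 110.2 and 112 FPM in wild type (log2 -0.0093). None of the sensors passed, with adjusted p-values from 0.901 to 0.985. Herpud1 had 134, 134 and 149 FPM in knock-in and 166, 153 and 120.1 FPM in wild-type libraries (log2 -0.078, SE 0.112, adjusted p = 0.945). The branch medians were -0.016 for IRE1, -0.0070 for ATF6 and 0.013 for PERK on the log2 scale, against -0.0038 over all genes.

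**Figure D2:**
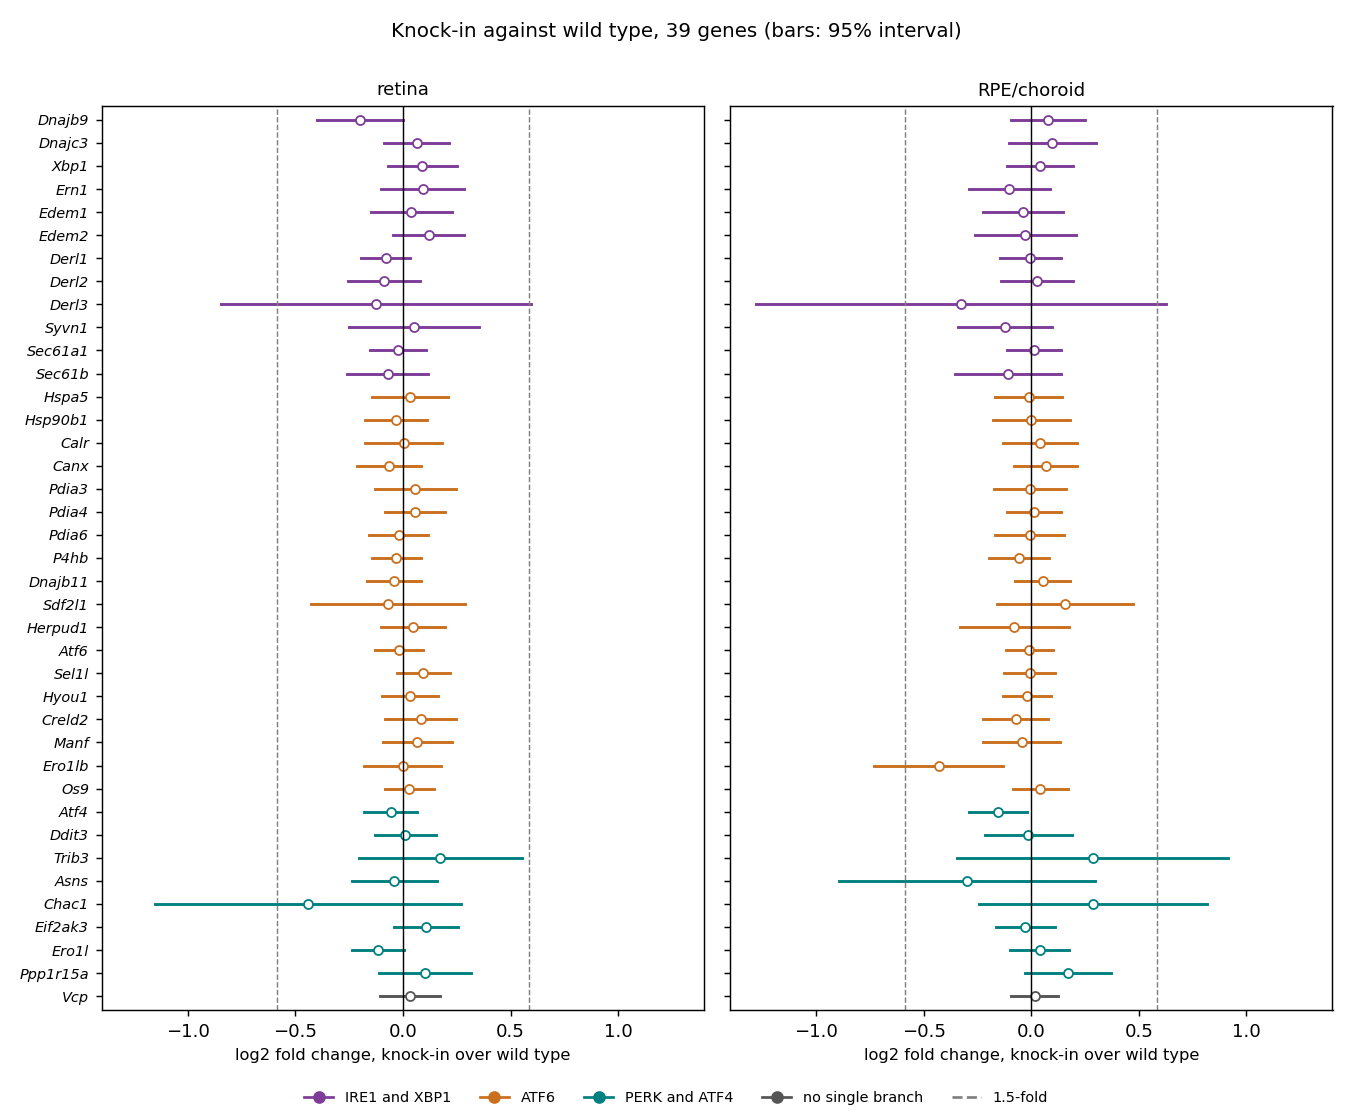
Log2 fold change of knock-in over wild type for each of the 39 genes in retina (left) and RPE/choroid (right), ordered and coloured by branch, with 95% intervals from the edgeR fit and dashed lines at 1.5-fold either way. Open points did not pass an adjusted p of 0.05, and all points are open; the wide intervals belong to low genes such as Derl3, Chac1 and Trib3.

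In knockout retina the 1 gene of the set that passed was an ATF4 target. Asns fell to 70.9% of wild type, with 47.4, 48.5 and 36.1 FPM in knockout and 60.6, 60.2 and 66.4 FPM in wild-type retinas and no overlap (log2 -0.50, SE 0.0935, adjusted p = 0.0240). It was 1 of 39 genes called (2.56%), against 0.98% of all tested genes. The deposited tables place Asns on chromosome 6 at 7625170 to 7643182 of build mm9. Beside it on the same branch, Atf4 itself had 213, 216 and 231 FPM in knockout and 257, 246 and 275 FPM in wild-type retinas, and the groups were apart while the test was missed (log2 -0.24, SE 0.0570, adjusted p = 0.0721). The oxidase gene Ero1l had 62.1, 64.9 and 61.4 FPM in knockout and 74.4, 77.3 and 71.6 FPM in wild-type retinas (log2 -0.24, SE 0.0568, adjusted p = 0.0622). Trib3, a pseudokinase gene that CHOP and ATF4 induce, had 3.01, 2.27 and 2.54 FPM in knockout and 3.57, 3.60 and 3.96 FPM in wild-type retinas (log2 -0.50, SE 0.186, adjusted p = 0.270). Each of these genes was lower in all 3 knockout libraries than in any wild-type library, and Ero1l and Trib3 are named here after their values were seen. They were the 4 genes of the set with an unadjusted p under 0.05 (10.3%), against 12.5% of all genes. All 4 were assigned here to the PERK branch, and members and lists were chosen with earlier results of these data known. The 29 other ATF4 and CHOP targets tested had a median log2 of 0.065, with 18 above 0 and 11 below.

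Other genes of the PERK branch did not pass. Ddit3 had 36.6, 34.7 and 37.0 FPM in knockout and 33.9, 33.9 and 36.6 FPM in wild-type retinas (log2 0.054, SE 0.0661, adjusted p = 0.804), Chac1 stood at log2 0.19 (adjusted p = 0.875), and Ppp1r15a, which encodes the phosphatase subunit GADD34 that ends the eIF2α signal, at 0.056 (adjusted p = 0.880). The branch median was -0.092, against -0.0067 for the IRE1 genes, -0.014 for the ATF6 genes and -0.0032 over all genes. Hspa5 had 368, 439 and 349 FPM in knockout and 401, 360.1 and 417 FPM in wild-type retinas (log2 -0.026, SE 0.0822, adjusted p = 0.943), and Xbp1 had 76.0, 87.8 and 76.7 FPM in knockout and 76.4, 73.2 and 84.5 FPM in wild-type retinas (log2 0.041, SE 0.0751, adjusted p = 0.884). Both overlapped. The sensors overlapped as well. Ern1 had 24.2, 22.8 and 24.9 FPM in knockout and 21.1, 23.8 and 21.6 FPM in wild type (log2 0.11, SE 0.0919, adjusted p = 0.663). Atf6 had 173, 170.2 and 172 FPM in knockout and 168, 163 and 170.3 FPM in wild type (log2 0.045, SE 0.0520, adjusted p = 0.787). Eif2ak3 had 64.5, 55.5 and 54.3 FPM in knockout and 57.7, 55.4 and 54.9 FPM in wild type (log2 0.054, SE 0.0691, adjusted p = 0.811). The ranges of Atf6 met only at their edges. Dnajb9 had 36.1, 40.2 and 31.5 FPM in knockout and 38.8, 37.5 and 45.0 FPM in wild type (log2 -0.17, SE 0.0938, adjusted p = 0.489), and Herpud1 77.7, 80.5 and 74.3 FPM in knockout and 76.0, 75.3 and 87.9 FPM in wild type (log2 -0.039, SE 0.0694, adjusted p = 0.877), both with overlap. Groups did not overlap for 7 genes (17.9%), the 4 above with Os9, Sec61b and Sel1l, against 17.9% of all genes. Intervals lay within 1.5-fold for 35 of the 39 (89.7%), against 76.1% of all genes.

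The lens genes, which mark lens left in the dissection, varied widely between the libraries. In libraries 0, 1 and 2 they summed to 7960, 519 and 592 FPKM in knock-in, to 664, 7350 and 15400 FPKM in knockout and to 1020, 282 and 53.5 FPKM in wild-type retinas. In the same order, Asns had 58.9, 61.3 and 61.8 FPM in knock-in, 47.4, 48.5 and 36.1 FPM in knockout and 60.6, 60.2 and 66.4 FPM in wild-type retinas. Of the knockout libraries, number 2 had the most lens RNA and the lowest Asns. Without knockout library 2 the difference was log2 -0.38 (adjusted p = 0.0314). With the lens level as a term it was -0.36 (adjusted p = 0.261), and without any 1 of the wild-type libraries the adjusted p was 0.0745 to 0.0900. The RPE genes and the pigment genes also moved with the groups, with summed FPKM of 214 to 276 in knockout and 186 to 195 in wild-type retinas for the 10 RPE genes, and of 25.6 to 32.6 in knockout and 11 to 21.9 in wild-type retinas for the 7 pigment genes. The 5 erythroid genes summed to 11.6 to 16.2 FPKM in knockout and 35.4 to 46.9 in wild-type retinas, and the 8 cone genes to 1020 to 1180 FPKM in knockout and 927 to 1000 in wild-type retinas. The part of these cells in the result was not tested.

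Knock-in and knockout retinas, compared directly, differed in the same gene. Asns had 58.9, 61.3 and 61.8 FPM in knock-in and 47.4, 48.5 and 36.1 FPM in knockout retinas, 137% of the knockout level and without overlap (log2 0.46, SE 0.0924, adjusted p = 0.0267). This comparison uses the same knockout libraries as the one with wild type and is not independent of it. Of the 39 genes 1 was called (2.56%), against 1.26% of all genes. Without knockout library 2 the log2 difference of Asns was 0.34 (adjusted p = 0.0444), with the lens term 0.40 (adjusted p = 0.0360), and without any 1 knock-in library the adjusted p was 0.0628 to 0.104. Marker levels lay apart here too. The 7 pigment genes summed to 20.1 to 22.2 FPKM in knock-in and 25.6 to 32.6 in knockout retinas, the 8 cone genes to 961 to 1010 in knock-in and 1020 to 1180 in knockout, the 9 microglia and macrophage genes to a median of 16.3 in knock-in and of 21.2 in knockout, without overlap, and the 6 plasma cell and B cell genes to 5.98 to 7.37 in knock-in and 8.25 to 11.4 in knockout. Their part in the result was not tested. Trib3 had 4.75, 3.51 and 4.29 FPM in knock-in and 3.01, 2.27 and 2.54 FPM in knockout retinas, without overlap and without passing (log2 0.68, SE 0.178, adjusted p = 0.0920). Atf4 had 249, 248 and 251 FPM in knock-in and 213, 216 and 231 FPM in knockout retinas (log2 0.18, SE 0.0568, adjusted p = 0.173). All knock-in libraries lay above the knockout ones for both genes. Ero1l stood at log2 0.13, SE 0.0563, adjusted p = 0.390. At an unadjusted p under 0.05 there were 4 genes (10.3%), against 11.7% of all genes, and the same 4 as between knockout and wild type, which share the knockout libraries. Groups did not overlap for 6 genes (15.4%), against 17.5% of all genes, and intervals lay within 1.5-fold for 35, against 77.5%. The median over the PERK genes was 0.090, over the IRE1 genes -0.014 and over the ATF6 genes 0.0061.

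**Figure D3:**
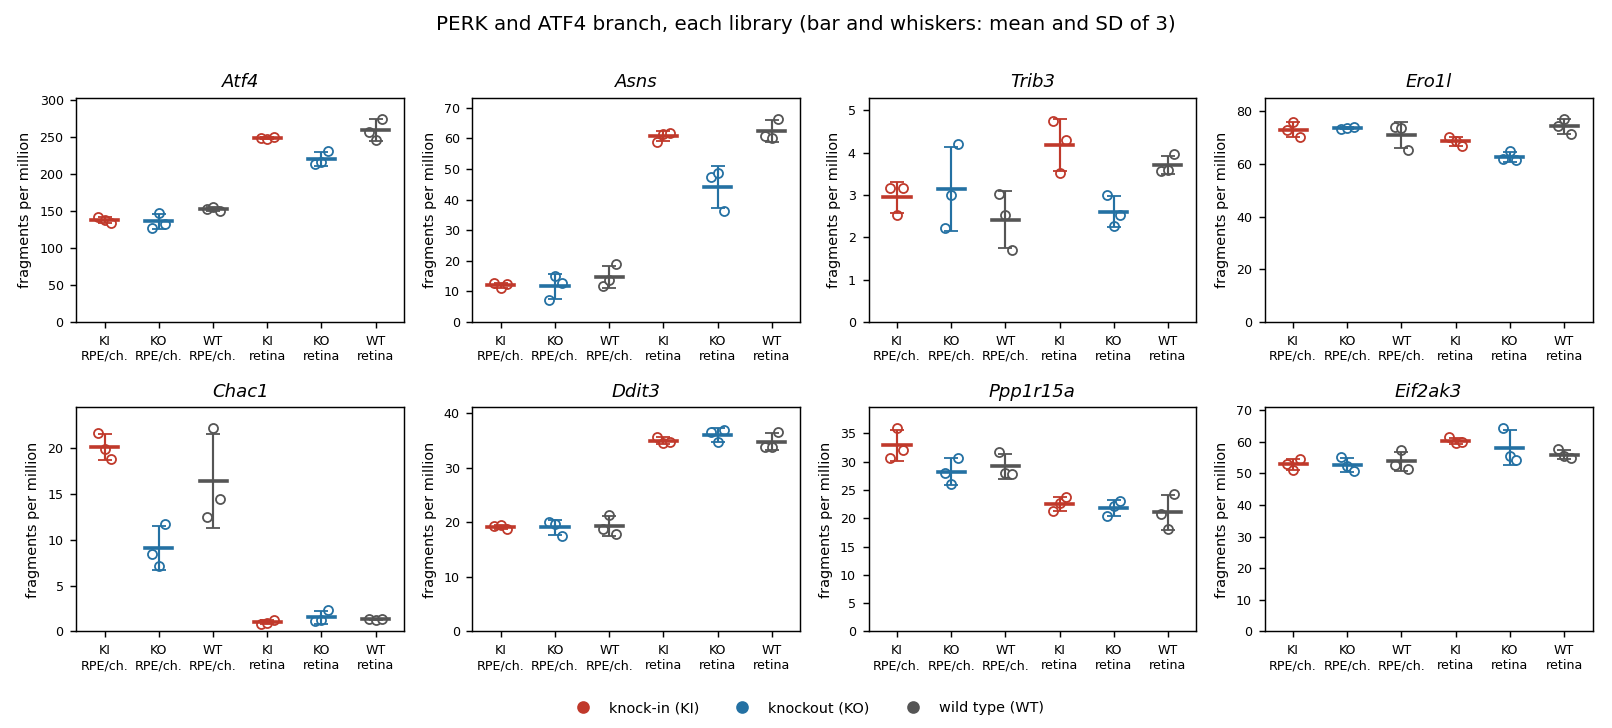
TMM-scaled fragments per M of the 8 genes of the PERK and ATF4 branch in each library, scaled within each tissue, with bars at the mean and whiskers of 1 SD of 3 libraries. The knockout retinas are the lowest retinas for Asns, Atf4, Trib3 and Ero1l and not for Ddit3, Ppp1r15a or Eif2ak3, and Chac1 is near 0 in retina and lower, without passing the test, in knockout than in knock-in RPE/choroid.

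In knockout RPE/choroid 0 of the 39 genes passed, where 73 of all 15454 tested genes (0.472%) did. DESeq2 called 2, Chac1 (adjusted p = 0.0225) and Sec61b (0.0284), where it called 532 of all 15393 genes it tested. Unadjusted p-values were under 0.05 for Atf4, Chac1, P4hb and Sec61b (10.3%), against 15.5% of all genes. Groups did not overlap for 7 genes (17.9%), against 21.8% of all genes, and intervals lay within 1.5-fold for 34, against 72.3%. Chac1, which encodes an enzyme that degrades glutathione and is induced by ATF4, had 8.47, 7.12 and 11.8 FPM in knockout and 12.5, 22.2 and 14.5 FPM in wild-type RPE/choroid (log2 -0.85, SE 0.238, adjusted p = 0.156). The groups did not overlap, and the wild-type libraries were widely spread. In retina Chac1 had 1.08, 1.23 and 2.38 FPM in knockout and 1.34, 1.25 and 1.38 FPM in wild type, with knockout libraries on both sides of the wild-type ones. Sec61b, a small subunit of the channel through which proteins enter the ER, had 38.2, 37.1 and 31.2 FPM in knockout and 53.8, 47.3 and 42.5 FPM in wild-type RPE/choroid and had the smallest p of the set (log2 -0.43, SE 0.110, adjusted p = 0.133). It passed without wild-type library 2, the one with rod genes (adjusted p = 0.0374), and with the rod level as a term (adjusted p = 0.0261), settings under which 462 and 363 of all genes passed in place of 73. Atf4 had 128, 148 and 133 FPM in knockout and 153, 156 and 150.5 FPM in wild-type libraries (log2 -0.17, SE 0.0598, adjusted p = 0.212), and Asns had 7.20, 15.1 and 12.8 FPM in knockout and 11.9, 13.8 and 18.9 FPM in wild-type libraries (log2 -0.34, SE 0.260, adjusted p = 0.564). The groups were apart for Atf4 and overlapped for Asns, and the wild-type libraries are those set against the knock-in above. Hspa5 had 526, 552 and 523 FPM in knockout and 582, 594 and 510.3 FPM in wild type (log2 -0.074, SE 0.0692, adjusted p = 0.645). The sensors overlapped between knockout and wild type. Ern1 had 25.2, 28.4 and 28.3 FPM in knockout and 26.1, 25.9 and 25.7 FPM in wild type (log2 0.075, SE 0.0834, adjusted p = 0.695). Atf6 had 108, 112 and 116 FPM in knockout and 105, 110.2 and 112 FPM in wild type (log2 0.038, SE 0.0484, adjusted p = 0.736). Eif2ak3 had 55.1, 52.5 and 50.7 FPM in knockout and 52.8, 57.3 and 51.4 FPM in wild type (log2 -0.030, SE 0.0606, adjusted p = 0.841). The knockout libraries lay inside the wild-type range for the next 3 genes. Xbp1 had 145, 138 and 140.5 FPM in knockout and 151, 152 and 129.6 FPM in wild type (log2 -0.034, SE 0.0681, adjusted p = 0.839). Dnajb9 had 84.0, 79.4 and 81.8 FPM in knockout and 71.6, 87.6 and 73.9 FPM in wild type (log2 0.071, SE 0.0770, adjusted p = 0.686). Herpud1 had 144, 138 and 159.7 FPM in knockout and 166, 153 and 120.1 FPM in wild type (log2 0.0089, SE 0.112, adjusted p = 0.977). Ddit3 had 20.2, 19.6 and 17.5 FPM in knockout and 18.8, 21.4 and 17.8 FPM in wild type (log2 -0.022, SE 0.0895, adjusted p = 0.925), with overlap. The medians were -0.045 for the IRE1 genes, -0.072 for the ATF6 genes and -0.037 for the PERK genes, with 26 of the 39 genes under 0 and -0.015 over all genes. The 10 RPE genes moved with these groups too, at 7280 to 7890 summed FPKM in knockout and 9090 to 9650 in wild-type libraries, and their part in the result was not tested.

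Between knock-in and knockout RPE/choroid 0 of the 39 genes passed, where 0.453% of all genes did. DESeq2 called Chac1 (adjusted p = 0.000522), where it called 313 of all 15393 genes it tested. Chac1 had 21.6, 19.9 and 18.9 FPM in knock-in and 8.47, 7.12 and 11.8 FPM in knockout libraries, 220% of the knockout level (log2 1.14, SE 0.239, adjusted p = 0.114). Every knock-in library was above every knockout library. Its log2 difference was 0.99 to 1.37 over the 20 alternatives, and the adjusted p was 0.000522 to 0.359, with calls by DESeq2, in a fit of the 2 groups alone (0.0190) and without wild-type library 1 (0.0396). The deposited tables place Chac1 on chromosome 2 at 119176977 to 119180062 of mm9. At an unadjusted p under 0.05 there were 7 genes (17.9%), Calr, Chac1, Dnajb11, Ero1lb, Ppp1r15a, Sdf2l1 and Sec61b, against 12.2% of all genes, and groups did not overlap for 11 (28.2%), against 22.0%. Intervals lay within 1.5-fold for 33, against 72.4%. Of the 7, Ero1lb had an estimate under 0, with 10.5, 12.3 and 12.5 FPM in knock-in and 13.2, 14.96 and 18.3 FPM in knockout libraries (log2 -0.39, SE 0.134, adjusted p = 0.282), and the other 6 had estimates above 0. Sec61b had 40.2, 44.1 and 49.0 FPM in knock-in and 38.2, 37.1 and 31.2 FPM in knockout libraries (log2 0.32, SE 0.111, adjusted p = 0.285). Hspa5 stood at log2 0.062, SE 0.0692, adjusted p = 0.773. The medians were 0.051 for the IRE1 genes, 0.065 for the ATF6 genes and 0.014 for the PERK genes, against 0.0040 over all genes.

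The level of each branch was also read in every library as the mean over its genes of log2(FPKM + 0.1), minus the wild-type mean of the tissue. By the deposited FPKM the knock-in means were 0.0044 for IRE1, 0.018 for ATF6 and -0.035 for PERK in retina, and -0.033, -0.015 and 0.065 in RPE/choroid. The knockout means were 0.0061, 0.0097 and -0.15 in retina and -0.048, -0.055 and -0.12 in RPE/choroid. On scaled fragments per M, a scale chosen after the FPKM had been seen, the PERK genes stood at -0.038, -0.077 and 0.024 in the 3 knock-in retinas, at -0.16, -0.19 and -0.096 in the 3 knockout retinas and at -0.012, -0.054 and 0.066 in the 3 wild-type retinas. The knockout retinas lay under all others, and Asns, Trib3, Atf4 and Ero1l were the genes of the branch that were lower in all 3 of them. In RPE/choroid the PERK genes stood at 0.078, 0.028 and 0.040 in knock-in, at -0.27, -0.12 and -0.015 in knockout and at -0.021, 0.096 and -0.074 in wild-type libraries. The knock-in libraries lay above all knockout libraries and within the wild-type range, and knockout and wild type overlapped. For IRE1 and ATF6 the genotypes overlapped in retina on this scale.

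**Figure D4:**
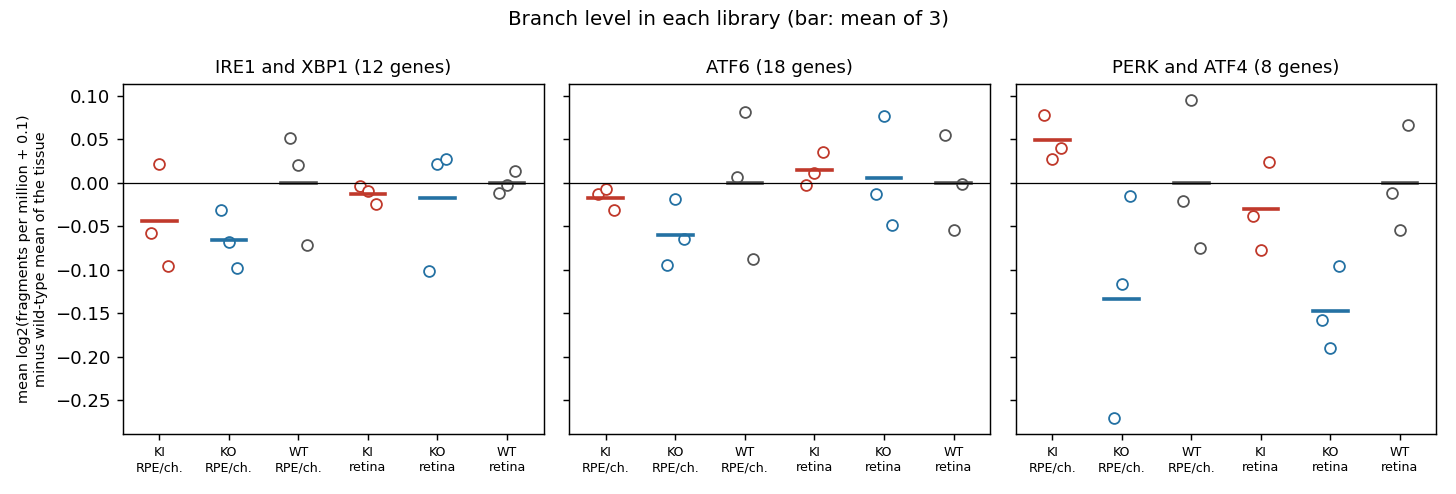
Mean of log2(fragments per M + 0.1) over the genes of each branch in each library, minus the wild-type mean of the tissue, with bars at the mean of 3 libraries. Knock-in libraries lie within the range of the wild-type libraries or just under it in all 3 branches and both tissues, and the knockout retinas lie lowest for PERK and ATF4.

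Whether a genotype acted differently in the 2 tissues was tested as an interaction over all 18 libraries. This fit had no term for sex, lens or rod level, and the sexes were spread differently over the groups of the 2 tissues. For the knock-in 0 of the 39 genes passed, where 0.0555% of all genes did, with DESeq2 at 0, and 1 had an unadjusted p under 0.05, Ero1lb (log2 -0.45, SE 0.167, adjusted p = 0.805), against 5.98% of all genes. Intervals lay within 1.5-fold for 33 of the 39, against 55.8% of all genes. For the knockout 0 passed, where 0.136% of all genes did. DESeq2 called Ero1l (adjusted p = 0.0244), where it called 250 of all 16070 genes it tested. Ero1l stood at log2 0.31, SE 0.0749, adjusted p = 0.113 in edgeR. Its levels in RPE/choroid were 73.3, 73.9 and 74.2 FPM in knockout and 74.1, 73.8 and 65.5 FPM in wild type, which overlapped, unlike in retina. Unadjusted p-values were under 0.05 for 6 genes, Chac1, Ero1l, Manf, P4hb, Sec61b and Trib3 (15.4%), against 12.3% of all genes, and intervals lay within 1.5-fold for 33, against 53.2%. Chac1 (log2 -0.999, SE 0.445, adjusted p = 0.384) and Trib3 (log2 0.89, SE 0.338, adjusted p = 0.302) had the widest differences and did not pass.

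The genes were then compared between the tissues in wild type. Between wild-type RPE/choroid and wild-type retina 29 of the 39 genes passed (74.4%), 21 higher and 8 lower, where 85.9% of all genes passed, 44.0% higher and 41.9% lower. Intervals lay within 1.5-fold for 13 (33.3%), against 20.2% of all genes. Most genes differ between these tissues, so the count by itself says little of the set. Other cells differ too: 8 skeletal muscle genes summed to 3640 to 5170 FPKM in wild-type RPE/choroid and 4.20 to 6.41 FPKM in wild-type retina. The count of 29 was the same without the RPE/choroid library that held rod genes. Means below are FPM scaled over all 18 libraries.

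The IRE1 genes were mostly higher in RPE/choroid, 9 of 12 with 1 lower and a median log2 of 0.97, against 0.039 over all genes. Edem1, which draws misfolded glycoproteins out of the folding cycle, averaged 60.4 FPM in RPE/choroid and 20.3 FPM in retina (log2 1.58, SE 0.0843, adjusted p = 2.19e-11). Dnajc3, the BiP cofactor P58IPK, averaged 259 FPM in RPE/choroid and 89.4 FPM in retina (log2 1.54, SE 0.0862, adjusted p = 3.99e-11). Xbp1 averaged 147 FPM in RPE/choroid and 76.5 FPM in retina (log2 0.94, SE 0.0751, adjusted p = 3.65e-09), and Dnajb9 79.2 FPM in RPE/choroid and 39.7 FPM in retina (log2 1.000). Higher too were Sec61b (log2 1.38), Derl1 (1.19), Sec61a1 (1.15), Derl2 (0.48) and Ern1 (0.28). Syvn1, the ubiquitin ligase HRD1 of ER-associated degradation, was lower (log2 -0.37, SE 0.132, adjusted p = 0.0163; called under 21 of 22 alternatives), and Edem2 and Derl3 did not pass. Sel1l, which stabilises the ligase, stood at 0.079 (adjusted p = 0.191).

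Of the 18 ATF6 genes 10 were higher and 3 lower in RPE/choroid, with a median of 0.26. The disulfide isomerases were among the higher ones: Pdia3 averaged 348 FPM in RPE/choroid and 145 FPM in retina (log2 1.26, SE 0.0917, adjusted p = 1.08e-09), and P4hb, Pdia6 and Pdia4 stood at log2 0.95, 0.91 and 0.57. The BiP cofactor gene Sdf2l1 (log2 1.10), Herpud1 (0.93), Hspa5 (0.57), Calr (0.56), the secreted factor Manf (0.35) and Creld2 (0.17) were higher as well. Lower were Atf6 itself, at 111 FPM in RPE/choroid and 164 FPM in retina (log2 -0.56, SE 0.0509, adjusted p = 2.11e-08), Ero1lb (log2 -0.49) and, with an interval that lay within 1.5-fold, Hyou1 (-0.13). Hyou1 was called under 7 of the 22 alternatives, with an adjusted p of up to 0.186, and Creld2 under 18 of them, with an adjusted p of up to 0.253. Hsp90b1, Canx, Dnajb11, Sel1l and Os9 did not pass. Canx and Hsp90b1, which like Hspa5 hold an ERSE in their promoters, had intervals within 1.5-fold, from log2 -0.094 to 0.19 and from -0.095 to 0.23.

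The PERK branch held both extremes of the set, and 4 of its 8 genes were lower. Asns averaged 15.1 FPM in RPE/choroid and 61.2 FPM in retina (log2 -2.02, SE 0.212, adjusted p = 3.2e-07), the lowest value of the 39. Chac1 averaged 16.7 FPM in RPE/choroid and 1.30 FPM in retina (log2 3.70, SE 0.300, adjusted p = 4.97e-09), the highest. Both genes hold the CARE printed above, and they lay on opposite sides. Atf4 averaged 156 FPM in RPE/choroid and 254 FPM in retina (log2 -0.70, SE 0.0584, adjusted p = 6.21e-09), and Ddit3 19.7 FPM in RPE/choroid and 34.1 FPM in retina (log2 -0.79, SE 0.0729, adjusted p = 2.59e-08). Trib3 was lower (log2 -0.55, SE 0.241, adjusted p = 0.0420), with a call under 15 of the 22 alternatives and an adjusted p of up to 0.154, and Ppp1r15a higher (log2 0.53, SE 0.1, adjusted p = 0.000112). Eif2ak3 stood at -0.00044 with an interval from -0.14 to 0.14, and Ero1l at -0.0090 with an interval from -0.12 to 0.10, so both lay within 1.5-fold. The branch had 2 genes higher and a median of -0.28. Vcp, the ATPase that pulls degradation substrates out of the membrane, did not pass (log2 -0.10, adjusted p = 0.103).

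**Figure D5:**
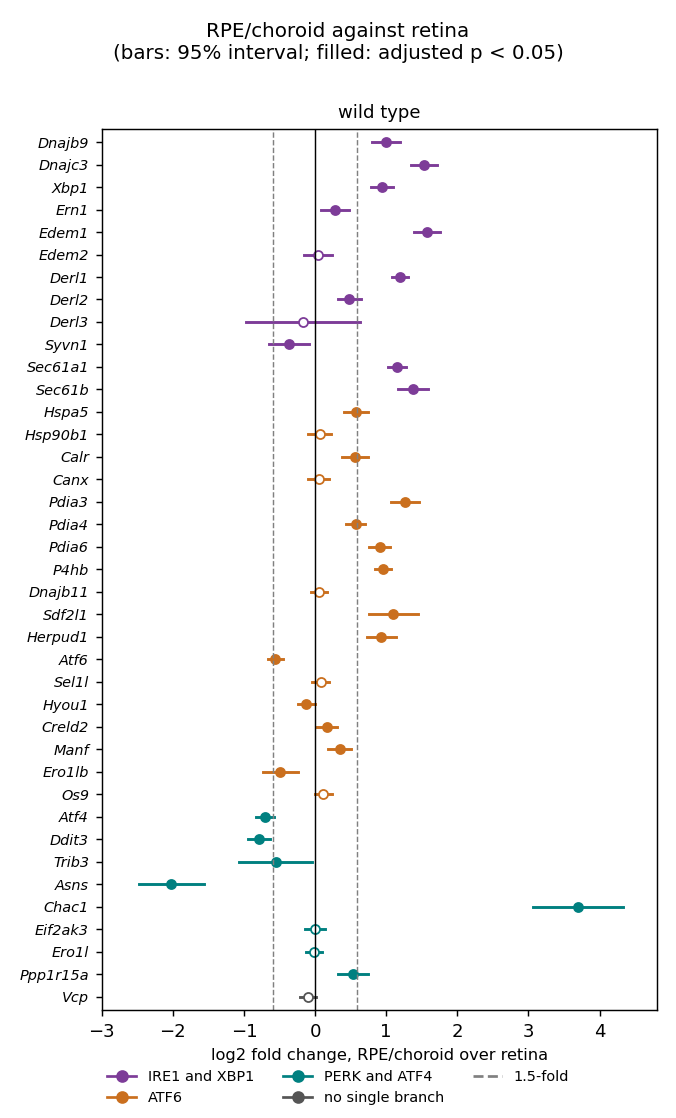
Log2 fold change of wild-type RPE/choroid over wild-type retina for each of the 39 genes, coloured by branch, with 95% intervals, dashed lines at 1.5-fold and filled points where the adjusted p was under 0.05. Most IRE1 and ATF6 genes lie right of 0, and the PERK genes run from Asns at -2.02 to Chac1 at 3.70.

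Genes of the pathway outside the 39 were counted in 9 further lists. Between knock-in and wild type no gene of these lists passed in either tissue, and the smallest adjusted p was 0.166 in retina, of the leucyl-tRNA synthetase gene Lars, and 0.800 in RPE/choroid, of the prolyl isomerase gene Fkbp2. The 29 other ATF4 and CHOP targets tested in retina had a median log2 of 0.083, with 23 above 0, and the 30 tested in RPE/choroid -0.031, with 9 above 0. Between knockout and wild-type retina 2 of the 184 genes tested over the lists passed (1.09%), close to the 0.98% of all tested genes. Ddit4, a stress-induced inhibitor of mTORC1 among the ATF4 and CHOP targets, was lower (log2 -0.43, SE 0.0791, adjusted p = 0.0192) and was no longer called with the lens term (log2 -0.28, adjusted p = 0.283) or without knockout library 1 or 2 or wild-type library 1 or 2, where the adjusted p was 0.0611 to 0.124. Over the left-out libraries its log2 difference was -0.52 to -0.38. The 29 other ATF4 and CHOP targets had a median log2 of 0.065 in this comparison, against -0.0032 over all genes, with 18 above 0 and 11 below. The 12 aminoacyl-tRNA synthetases had a median of -0.011, with 4 above 0 and 8 below. Stt3b, a catalytic subunit of the enzyme that attaches glycans in the ER, averaged 167 FPM in knockout and 128 FPM in wild-type retina (log2 0.38, SE 0.0535, adjusted p = 0.00282) and 131 FPM in knock-in and 167 FPM in knockout retina (log2 -0.35, SE 0.0531, adjusted p = 0.00357), comparisons that share the knockout libraries. In RPE/choroid 0 passed in either comparison with the knockout. Of the 39 translocon and early secretory genes outside the set, 13 (33.3%) had an unadjusted p under 0.05 between knockout and wild type, against 15.5% of all genes, with 31 under 0 and a median log2 of -0.080, against -0.015 over all genes. Between knock-in and knockout there were 10 (25.6%), against 12.2% of all genes, with 32 above 0 and a median of 0.066, against 0.0040 over all genes. These comparisons share the knockout libraries. The smallest adjusted p of the first was 0.0519, of the translocon-associated gene Ssr2.

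Between the wild-type tissues 160 of the 187 genes tested over the lists passed (85.6%), close to the 85.9% of all tested genes. Of all tested genes 44.0% were higher and 41.9% lower in RPE/choroid, and the lists differed in direction. Of the 39 translocon and early secretory genes 28 were higher and 4 lower in RPE/choroid, with Sec24d of the COPII coat (log2 2.48, SE 0.0774, adjusted p = 3.28e-14) and the KDEL receptor gene Kdelr2 (log2 1.94, SE 0.0608, adjusted p = 3.52e-14) among the higher. Of 37 other folding enzymes 26 were higher and 9 lower. All 7 transcripts known from other cells to be cut by IRE1 were higher, with a median log2 of 2.72, and they include Sparc and Pdgfrb, which cells of connective tissue and vessels express. Of the 12 aminoacyl-tRNA synthetases that ATF4 induces, 0 were higher and 10 lower, with Aars averaging 107 FPM in RPE/choroid and 214 FPM in retina (log2 -1.01, SE 0.0666, adjusted p = 3.28e-10). Of 23 other degradation genes 6 were higher and 12 lower.

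The authors' deposited table of comparisons, which rests on FPKM, holds a q-value for each of the 39 genes in each genotype comparison. Under a q of 0.05 it has 0 of the 39 between knock-in and wild type in retina, where 2.11% of its genes are, and 0 in RPE/choroid, where 2.39% are. In each comparison with the knockout it has 1 of the 39. Asns has a q of 0.00293 between knockout and wild-type retina, where 3.44% of its genes are under 0.05. It has the same q between knock-in and knockout retina, where 2.34% are. Chac1 has a q of 0.00347 in both such comparisons of RPE/choroid, where 2.9% and 2.36% are.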

How the data were processed

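Total RNA of retina and RPE/choroid was sequenced as stranded, ribosomal-depleted paired-end libraries, per the labels' protocols. TopHat, Bowtie2 and Cufflinks and build mm9 are named, without versions, per the submitters' processing notes. The authors deposited, for each library and gene, an estimated count of fragments and FPKM, and for each comparison genotype FPKM with p-values and q-values. The deposited estimated counts were whole numbers for 98.5% of values in retina and 98.4% in RPE/choroid, and were rounded to whole numbers. Gene and transcript tests of the authors were only quoted. Names were matched by symbol.

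Tests were made on these counts by edgeR 4.0.16 under R 4.3.3 (TMM scaling, filterByExpr, robust quasi-likelihood fit of the 9 libraries of a tissue), with Benjamini-Hochberg adjustment over all tested genes and a threshold of 0.05. Interactions and the wild-type tissue comparison used all 18 libraries, and terms for sex, lens or rod level were run only within a tissue. Retina had a biological coefficient of variation of 0.114 and RPE/choroid one of 0.154, which with 3 libraries a group sets the precision. Fold changes are log2 with SE, and 95% intervals come from the same fit. DESeq2 1.42.0, limma 3.58.1 on log2(FPKM + pseudocount of 1 or 0.1), other scalings, filters and terms, and each library left out were alternatives. The code was tested on simulated data. Between replicates the chi-square per gene was 3.39 to 99.8, so no library was a copy of another.

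Per-library values were given, in the comparisons of each genotype with wild type, for the sensors, Hspa5, Xbp1, Dnajb9, Herpud1, Atf4, Ddit3 and Asns, and in its own comparison for every member called between genotypes and the member with the smallest p. From wider lists up to 4 called genes, or the 1 with the smallest p, were eligible to be named by their estimates. The members and lists were chosen with earlier results of these data known. Libraries are named by the number in the deposited tables, which nothing ties to the numbers in the labels. The planned test of Xbp1 transcripts was not run, since 1 transcript is listed. Motifs were searched in RefSeq promoters of GRCm38.p6, and no coordinates were converted.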

Additional observations from a re-analysis of the deposited data

How the results depend on the processing

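Between knock-in and wild type 0 of the 39 genes were called in either tissue under each of the 20 alternatives, and the knock-in interaction had 0 under each of its 22. The count between wild-type tissues was 26 to 29 under the alternatives run. Where a count of called genes moved, it moved as follows. Between knockout and wild-type retina (1 gene) it was 3 with DESeq2 (Asns, Atf4 and Ero1l), 2 with a term for sex, 0 with limma at either pseudocount, 0 in a fit of the 2 groups alone, 0 with a term for lens level, and 0 to 1 when each library was left out in turn, with 0 without any wild-type library. Between knock-in and knockout retina (1 gene) it was 0 with limma at either pseudocount, 0 in a fit of the 2 groups alone, 0 without robust estimation, and 0 to 1 over left-out libraries, with 0 once a knock-in library, or wild-type library 0 or 1, was left out. Between knockout and wild-type RPE/choroid (0 genes) it was 2 with DESeq2, 1 with a term for rod level, and 0 to 1 over left-out libraries. Between knock-in and knockout RPE/choroid (0 genes) it was 1 with DESeq2, 1 in a fit of the 2 groups alone, and 0 to 1 over left-out libraries. The knockout interaction (0 genes) was 1 with DESeq2. DESeq2 called more genes of the whole table too: between knockout and wild-type retina 327 of 14692, where edgeR called 144 of 14699. A fit of fewer libraries has fewer degrees of freedom, and leaving out libraries of the group not compared changes the estimate of the spread; the cause of the other moves was not tested.

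The log2 difference of Asns was -0.57 to -0.36 between knockout and wild-type retina, with a call under 12 of the 20 alternatives and an adjusted p of 0.000291 to 0.261. Between knock-in and knockout retina it was 0.34 to 0.53, with a call under 10 of the 20 and an adjusted p of 0.000826 to 0.179. The mean level of the PERK branch in knock-in retina was -0.035 with a pseudocount of 0.1, -0.016 with a pseudocount of 1 and -0.031 on scaled fragments, which were added after the data had been seen. Single genes were counted if they had an unadjusted p under 0.05 or the set's smallest p, or were named from a wider list. Each such result was paired with each alternative. Of these pairs 3420 kept their direction and their side of the threshold, 43 gained a call, 57 lost it and 0 turned round while called. Genes chosen by a small p keep their direction more readily, so these counts do not describe the whole set. Over the 8 genotype comparisons and interactions, 283 estimates of single genes of the set did not have an unadjusted p under 0.05. They were not all close to 0. The largest in absolute size was log2 0.718, of Chac1 in the knock-in interaction. Of the 283, 150 changed sign under an alternative and 0 were called under one.

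With the table number as a replicate block, 2 genes were called between knockout and wild-type retina (Atf4 and Ero1l, with Asns at an adjusted p of 0.0605) and 0 between knock-in and knockout retina. Correlations of deviations between libraries of the same number were -0.47 to 0.24, and between libraries of different numbers -0.32 to 0.46. Fragments per FPKM did differ by number, as given above. Whether libraries of 1 number share a batch is not given in the labels and was not tested. Genes with few fragments, such as Chac1 in retina, Trib3 and Derl3, had intervals beyond 1.5-fold in several comparisons. The planned test of Xbp1 transcripts could not be run on 1 listed transcript.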

Other observations

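Further lists of ER stress genes were counted between wild-type RPE/choroid and wild-type retina. Of all tested genes 85.9% passed there, 44.0% higher and 41.9% lower, so the counts alone say little of these lists. Of 20 stress transducers 12 were higher and 4 lower in RPE/choroid, with a median log2 of 0.53, against 0.039 over all genes. The kinase gene Eif2ak2 (PKR), which phosphorylates eIF2α in response to double-stranded RNA, was among the higher ones (log2 3.43, SE 0.121, adjusted p = 1.25e-13), as was Nfe2l2, the gene of the antioxidant factor NRF2 (log2 2.17, SE 0.0847, adjusted p = 4.15e-13). Of 30 further ATF4 and CHOP targets 19 were higher and 8 lower, with a median of 1.09. Amino acid transporters were among the higher, Slc1a5 (log2 2.03, SE 0.134, adjusted p = 3.14e-10) and Slc3a2 (log2 1.18, SE 0.0821, adjusted p = 6.28e-10), and Vldlr was lower (log2 -1.93, SE 0.0878, adjusted p = 2.84e-12). Of 12 genes of cell death tied to ER stress 8 were higher and 1 lower, with Casp12 at log2 6.86, SE 0.247, adjusted p = 1.49e-13 and Mapk8, the 1 lower, at log2 -1.48, SE 0.0712, adjusted p = 5.54e-12. Of 7 receptors of ER-phagy 2 were higher and 4 lower, with Atl3 higher (log2 2.53, SE 0.0852, adjusted p = 7.46e-14) and Fam134a lower (log2 -0.87, SE 0.0702, adjusted p = 4.25e-09). The cell types of these tissues differ, and the part of each in these values was not tested.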
